A study of Mus musculus with 6 samples.

Results

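Microglia and perivascular macrophages travel with the vessel wall when brain microvessels are isolated, and 10 genes that mark them were followed in microvessels of TEKCRIF1 KO and WT mice. The genes were chosen by symbol, 6 as microglia genes (*Cx3cr1*, *P2ry12*, *Tmem119*, *Csf1r*, *C1qa* and *C1qb*) and 4 as perivascular macrophage genes (*Mrc1*, *Cd163*, *Lyve1* and *Pf4*), out of 23183 symbols. All 10 were detected in every library. 9 of the 10 had a lower mean in KO mice and *P2ry12* had a higher one, but none passed the test after adjustment for all genes.

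The KO mice were TEK-cre, *Crif1* flox/flox and the WT mice were TEK-cre, *Crif1* +/+, so both groups carried the same Cre, and the background was C57BL/6. Cerebral microvessels of 3 KO and 3 WT mice were sequenced without any treatment, and the age and sex of these mice are not given in the sources used here. Tek is active in endothelial cells, and Tek-driven Cre lines are also known to act in blood-forming lineages, from which some brain macrophages can arise. Microvessels were enriched from homogenized brain by centrifugation in dextran and retention on a cell strainer, with no sort for a cell type. In such bulk RNA, fewer cells of a type and less RNA per cell cannot be told apart.

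Microglia are the resident macrophages of the brain parenchyma, seeded from the yolk sac and kept alive by signals through the CSF1 receptor, and many of them touch capillaries with their processes. They sense fractalkine from other brain cells through CX3CR1 and extracellular nucleotides through P2RY12, which directs their processes to injured vessels. Perivascular macrophages lie between the vessel wall and the glial border, where they take up material from blood and fluid through scavenger receptors such as CD163 and the mannose receptor. Both cell types depend on the transcription factor PU.1, encoded by *Spi1*.

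Gene levels were deposited by the authors as FPKM, fragments per kilobase of transcript scaled to the size of the library, which sets genes of different length on a common scale. The estimated depth was 6500000 to 12000000 fragments per library. For a transcript of 1 kb the detection floor of 3 fragments was then 0.251 to 0.459 FPKM, counting error alone considered. *Gadd45gip1*, the symbol of the targeted *Crif1* gene, was lower in each of the 3 KO libraries than in any WT library. KO 1 and KO 3 stood apart from the other libraries by choroid plexus markers, whose summed level was 9057 and 10963 FPKM there, 3054 FPKM in KO 2 and 3000 to 3449 FPKM in WT mice. Results that rest on these libraries are therefore also given without them, and the comparison then has a single KO library, which is assumed to vary like the WT libraries.

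RefSeq promoter windows (GRCm38.p6) were at hand for 6 of the 10 genes, namely *Cx3cr1*, *P2ry12*, *C1qb*, *Mrc1*, *Cd163* and *Pf4*, and not for *Tmem119*, *Csf1r*, *C1qa* and *Lyve1*. The 250 bases before the start site are printed, 5′ to 3′ along each gene's own strand, for *Cx3cr1*, whose groups did not overlap, for *P2ry12*, the gene with the higher KO mean, and for *Mrc1* and *Pf4*, which hold the PU.1-type motif GAGGAAG. The motif was searched on both strands, so that a reverse match reads CTTCCTC, and capitals mark the matches. The windows are chr9:120068297-120068546 (minus strand) for *Cx3cr1*, chr3:59262986-59263235 (minus strand) for *P2ry12*, chr2:14229164-14229413 (plus strand) for *Mrc1* and chr5:90772185-90772434 (plus strand) for *Pf4*.
Cx3cr1: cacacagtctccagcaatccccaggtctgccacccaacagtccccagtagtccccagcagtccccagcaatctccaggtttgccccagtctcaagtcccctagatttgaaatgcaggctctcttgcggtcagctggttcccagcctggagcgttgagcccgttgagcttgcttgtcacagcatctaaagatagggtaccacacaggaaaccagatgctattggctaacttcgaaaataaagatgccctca
P2ry12: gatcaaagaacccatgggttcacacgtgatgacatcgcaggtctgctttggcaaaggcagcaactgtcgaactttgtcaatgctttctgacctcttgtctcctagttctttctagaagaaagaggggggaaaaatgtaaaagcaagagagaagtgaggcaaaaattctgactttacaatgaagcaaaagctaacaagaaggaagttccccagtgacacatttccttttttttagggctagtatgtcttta
Mrc1: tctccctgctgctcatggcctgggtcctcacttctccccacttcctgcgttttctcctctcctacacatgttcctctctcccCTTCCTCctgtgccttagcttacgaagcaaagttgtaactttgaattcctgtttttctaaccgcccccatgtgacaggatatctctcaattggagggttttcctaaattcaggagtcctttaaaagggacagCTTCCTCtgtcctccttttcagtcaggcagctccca
Pf4: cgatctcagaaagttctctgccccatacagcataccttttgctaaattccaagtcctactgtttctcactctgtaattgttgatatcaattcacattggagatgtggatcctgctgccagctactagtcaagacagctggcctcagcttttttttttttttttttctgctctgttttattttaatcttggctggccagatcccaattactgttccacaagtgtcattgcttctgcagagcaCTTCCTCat
The motif was found in 2 of the 6 windows, both of perivascular macrophage genes, against 10.6% of all 32851 windows of the same length. *Mrc1* held it at 2 places and *Pf4* at 1, all on the reverse strand. Of 19 other genes named below with windows, 5 also held the motif, namely *Laptm5*, *C1qc*, *Cx3cl1*, *Mef2c* and *Entpd1*. The motif was absent from the windows of *Cd163* and of the border macrophage genes *Stab1* and *Dab2*. It was the only motif searched. These matches are a description of the letters.

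In WT mice the complement genes *C1qa* and *C1qb* were the most abundant of the 10, with 51.9 ± 13.1 and 47.5 ± 6.85 FPKM (mean ± SD, n = 3). *Csf1r*, *Pf4*, *Mrc1* and *Tmem119* followed at means of 43.8, 32.2, 28.7 and 23.6 FPKM. Each of the first 5 genes overlapped in range with the next in the order. *Cx3cr1* at 15.6 FPKM lay below every *Tmem119* value and above every *Lyve1* value, and *Lyve1* at 12.5 FPKM lay above every *P2ry12* value. *P2ry12* at 7.70 FPKM and *Cd163* at 5.42 FPKM overlapped. In KO mice *C1qb* stood first at 36.0 FPKM with *C1qa* behind it at 33.5 FPKM, and *P2ry12* at 11.6 FPKM stood beside *Cx3cr1* at 11.4 FPKM. *Cd163* was last again at 4.43 FPKM, and it was the only gene of the KO order whose range did not overlap with that of the gene before it.

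**Figure D1:**
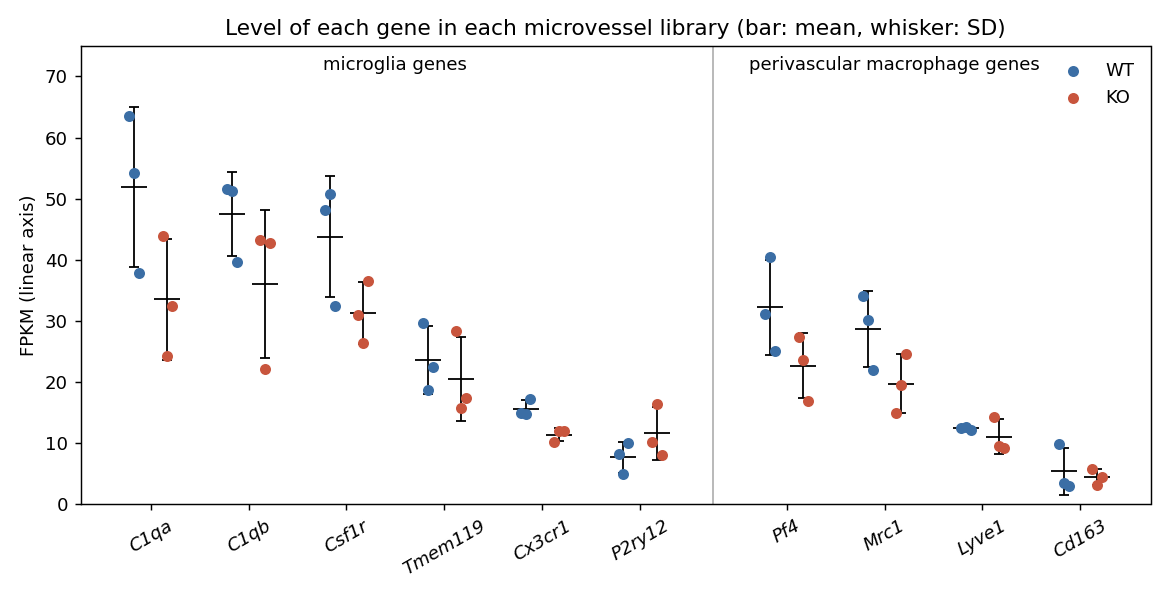
The plot of levels by library gives the FPKM of each of the 10 genes (linear axis) in 3 WT and 3 KO libraries, with bars for group means and whiskers for SDs. *Cx3cr1* is the gene whose 3 KO points all lie below its 3 WT points, and *P2ry12* is the gene whose KO mean is the higher one.

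The genotypes were compared by limma on log2(FPKM + 1). The fit took in the 14247 genes whose mean reached 1 FPKM, all 10 among them. On this scale fold changes of low genes are understated. The number of genes with an adjusted p under 0.05 was 0 (0.00% of those tested, limma), while 838 (5.88%) had an unadjusted p under 0.05. Among the 10 genes the adjusted p ran from 0.841 to 0.979. *C1qa* was the single gene of the 10 with an unadjusted p under 0.05, and 3.11% of all genes had one in its direction, lower in KO mice. In the other direction, higher in KO mice, it was 0 of the 10 against 2.77% of all genes. Groups did not overlap for 1 of the 10, *Cx3cr1*, against 11.1% of all genes, or 5.70% for the direction of every KO value below every WT value. None of the 10 had every KO value above every WT value, as 5.37% of all genes did. 9 of the 10 had a lower mean in KO mice against 50.8% of all genes. The median log2 fold change was −0.43 over the microglia genes, −0.34 over the perivascular macrophage genes and −0.01 over all genes tested. Several lists of other cells were lower too, with medians of −0.35 for astrocyte, −0.32 for fibroblast, −0.28 for pericyte and −0.55 for oligodendrocyte markers. Neuron and brain endothelium markers had medians of −0.24 and −0.13, while arterial smooth muscle and choroid plexus markers had 0.39 and 0.97. The 10 genes share cells and libraries and are not replicates of the comparison. Without KO 1 and KO 3, 9 of the 10 again had a lower KO mean, with medians of −0.60 and −0.44 over the microglia and the perivascular macrophage genes. In that comparison *P2ry12* (log2 fold change 1.05, limma p 0.0425), *C1qa* (−1.04, limma p 0.0192) and *C1qb* had an unadjusted p under 0.05, that is 3 of the 10 against 12.8% of all genes in the same comparison. With 3 mice a group, 0.1 is the smallest p that the exact permutation test allows.

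**Figure D2:**
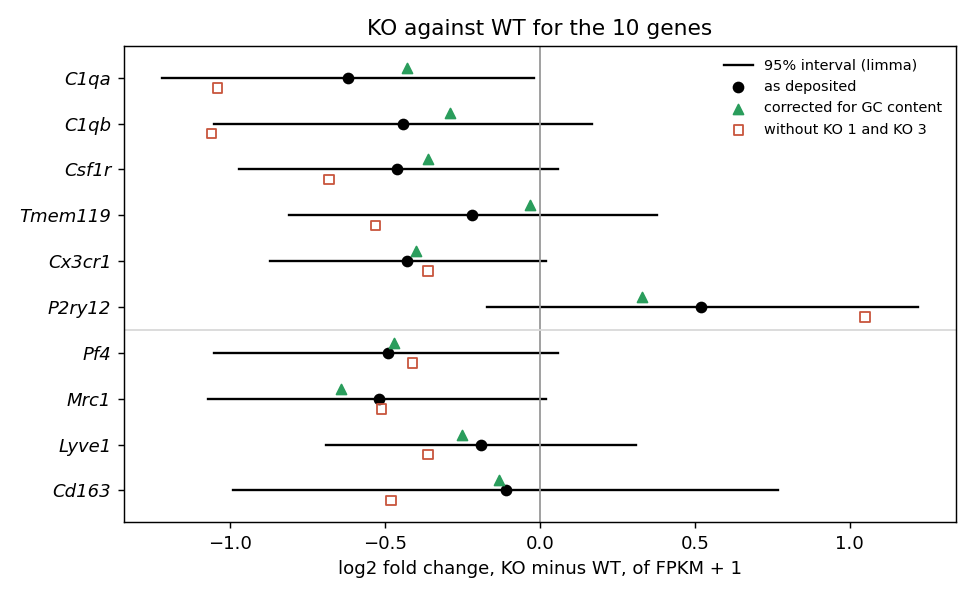
The plot of fold changes gives the log2 fold change, KO minus WT, of each of the 10 genes with its 95% interval from limma, beside the value after a correction for GC content (triangles) and the value without KO 1 and KO 3 (squares). The interval of *C1qa*, −1.22 to −0.02, is the one that lies wholly on the side of lower levels in KO mice, and *P2ry12* lies on the other side under all 3 settings.

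*Cx3cr1* (ENSMUSG00000052336.7, 3 exons on chromosome 9) encodes the fractalkine receptor. Its level was 14.9, 14.7 and 17.2 FPKM in the WT libraries, in their order from WT 1 to WT 3, against 10.1, 11.9 and 12 FPKM in the KO libraries from KO 1 to KO 3, and values are given in this order throughout. Each KO value lay below each WT value, and the spread within a group was small, with SDs of 1.40 and 1.05 FPKM. The log2 fold change was −0.43 ± 0.20 (SE, 95% interval −0.87 to 0.02), or 0.745 of the WT level on the scale of FPKM + 1. The unadjusted limma p was 0.057 and the exact two-sided permutation p was 0.1. Over the alternative settings the log2 fold change of *Cx3cr1* ran from −0.47 to −0.35, the narrowest range of the 10 genes, and its limma p was under 0.05 in 3 of the 16. *Cx3cr1* shares 78 of its 4505 annotated exon bases with a gene on the other strand, *Gm33858*.

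*P2ry12* (ENSMUSG00000036353.13, 4 exons on chromosome 3) encodes the purinergic receptor by which microglia sense ADP. Its level was 8.22, 4.96 and 9.94 FPKM in WT mice against 10.2, 16.4 and 8.11 FPKM in KO mice. KO 2 was the highest library and WT 2 the lowest, and KO 3 lay below WT 1 and WT 3, so the groups overlapped. The log2 fold change was 0.52 ± 0.31 (SE, 95% interval −0.17 to 1.22), with a limma p of 0.124 and an exact permutation p of 0.3. The difference rested in part on KO 2 and WT 2, and it was 0.26 without the former and 0.27 without the latter. The highest *P2ry12* value was 3.32 times the lowest, which placed it at the 92.2nd percentile of the 9907 genes that reached a mean of 5 FPKM, whose median was 1.82. At 38.6%, *P2ry12* had the lowest GC content of the 10 genes, and after correction for GC content the log2 fold change was 0.33.

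The sign of *P2ry12* was thus opposite to that of *Cx3cr1*, and their ratio separated the groups in these libraries. *Cx3cr1* was 1.82, 2.96 and 1.73 times *P2ry12* in WT mice and 0.993, 0.725 and 1.48 times in KO mice. The difference of the ratio was noticed in the data and was not tested. *P2ry12* lies within *Med12l*, a gene on the other strand, and 9 of its 2546 exon bases are shared with it. *Med12l* was at 1.74, 1.27 and 2.24 FPKM in WT mice against 2.15, 3.28 and 1.44 FPKM in KO mice, and its order over the libraries was close to that of *P2ry12*. Whether fragments were counted by strand is not given in the sources used here, and the part of *Med12l* in the *P2ry12* values was not tested.

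*Csf1r* (ENSMUSG00000024621.16, 21 exons on chromosome 18) encodes the receptor for CSF1 and IL-34, on which microglia and most tissue macrophages depend. Its level was 48.1, 50.8 and 32.4 FPKM in WT mice against 30.9, 26.4 and 36.6 FPKM in KO mice. WT 1 and WT 2 lay above all KO libraries, whereas WT 3 lay between KO 1 and KO 3. Its log2 fold change was −0.46 ± 0.23 (SE), with a limma p of 0.0759 and an exact permutation p of 0.2. Without WT 3 it was −0.66 with a limma p of 0.0221, and without WT 2 it was −0.34 with a limma p of 0.245. *Csf1r* shares 873 of 5774 exon bases with *Hmgxb3* on the other strand.

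*Tmem119* (ENSMUSG00000054675.5, 2 exons on chromosome 5), a membrane protein gene used to tell microglia from other macrophages, showed 29.6, 18.7 and 22.4 FPKM in WT mice against 28.3, 15.7 and 17.3 FPKM in KO mice. The lowest and the highest of its libraries in each group were far apart and the groups overlapped. Its log2 fold change was −0.22 ± 0.27 (SE, 95% interval −0.81 to 0.38), with a limma p of 0.437. After correction for GC content, which is 59.1% in *Tmem119*, the value was −0.03. It was −0.04 without WT 1, −0.06 without KO 2, −0.12 without KO 3, −0.36 without WT 2, −0.46 without KO 1 and −0.53 without KO 1 and KO 3.

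*C1qa*, *C1qb* and *C1qc* are neighbours on chromosome 4 and encode the chains of C1q, the molecule that starts the classical complement pathway, made in the brain mostly by microglia and macrophages. *C1qa* (ENSMUSG00000036887.5) was at 63.6, 54.2 and 37.8 FPKM in WT mice against 43.9, 24.2 and 32.5 FPKM in KO mice. WT 3 lay below KO 1, and the remaining WT libraries lay above all KO libraries. Its log2 fold change was −0.62 ± 0.27 (SE, 95% interval −1.22 to −0.02), or 0.650 of the WT level on the scale of FPKM + 1. For *C1qa* the limma p was 0.0435 unadjusted and 0.841 adjusted, and the exact permutation p was 0.2. At 59.5%, its GC content was the highest of the 10 genes, and after correction the value was −0.43 with a limma p of 0.134. The call at the unadjusted level held in 8 of 16 alternative settings.

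*C1qb* (ENSMUSG00000036905.8) was at 51.6, 51.3 and 39.6 FPKM in WT mice against 43.2, 22.1 and 42.8 FPKM in KO mice. KO 2 stood alone at the low end, and KO 1 and KO 3 lay above WT 3. The log2 fold change was −0.44 ± 0.27 (SE) with a limma p of 0.14, and without KO 2 it was −0.13 with a limma p of 0.49. Without KO 1 and KO 3 it was −1.06 with a limma p of 0.00457. *C1qc*, which was not among the 10, was at 61.9, 55.0 and 65.0 FPKM in WT mice against 49.5, 44.0 and 46.4 FPKM in KO mice. The 3 KO values of *C1qc* lay below all WT values, at a log2 fold change of −0.37 ± 0.18 (SE) and a limma p of 0.0712. The chains were not in a fixed ratio, since *C1qa* was 1.03 times *C1qc* in WT 1 and 0.550 times in KO 2.

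**Figure D3:**
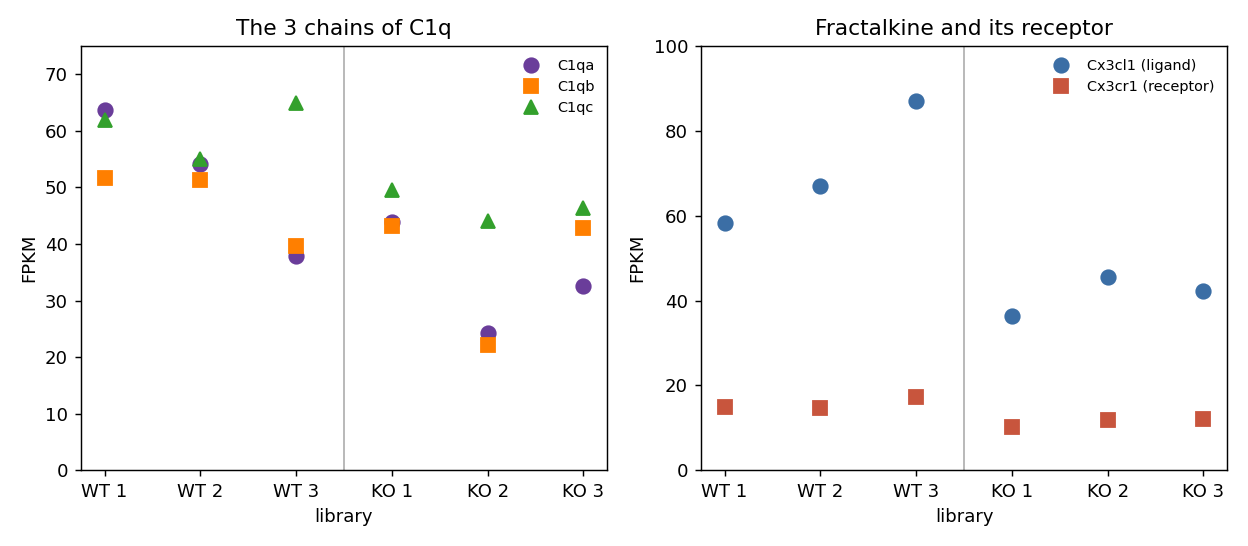
The plot of C1q chains and fractalkine gives FPKM in each library, with the 3 chains of C1q on the left and the ligand *Cx3cl1* with its receptor *Cx3cr1* on the right. *C1qc*, *Cx3cl1* and *Cx3cr1* separate the groups, whereas *C1qa* and *C1qb* overlap, with KO 2 lowest for both at 24.2 and 22.1 FPKM.

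*Mrc1* (ENSMUSG00000026712.3, 30 exons on chromosome 2) encodes the mannose receptor. It was at 34.0, 30.2 and 21.9 FPKM in WT mice against 15.0, 19.5 and 24.6 FPKM in KO mice. KO 3 alone reached above a WT library, WT 3. For *Mrc1* the log2 fold change was −0.52 ± 0.25 (SE, 95% interval −1.07 to 0.02), with a limma p of 0.0583 and an exact permutation p of 0.2. Unlike that of *C1qa*, the difference of *Mrc1* was larger after correction for GC content, at −0.64 with a limma p of 0.0288. It was −0.70 without WT 3 and −0.35 without KO 1 (limma p 0.21), and the limma p was under 0.05 in 3 of 16 alternative settings.

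*Pf4* (ENSMUSG00000029373.7, 3 exons on chromosome 5) encodes platelet factor 4, a chemokine of platelets that border macrophages also express strongly. It was at 31.2, 40.5 and 25.0 FPKM in WT mice against 27.4, 23.6 and 16.9 FPKM in KO mice. The groups overlapped at WT 3 and KO 1. Its log2 fold change was −0.49 ± 0.25 (SE, 95% interval −1.05 to 0.06), with a limma p of 0.0774. It was −0.30 without KO 3 and −0.32 without WT 2. The limma p was under 0.05 without WT 3 (0.0414), without KO 1 (0.0481) and with a correction for transcript length (0.0315). In WT 2, the library in which *Pf4* was highest, the platelet genes *Ppbp*, *Gp9* and *Gp6* were at 0, *Gp6* as in 3 other libraries, while *Gp1bb* was at its highest there with 17.5 FPKM. The summed level of 8 platelet markers was 18.6 to 27.7 FPKM in WT mice against 16.4 to 26.7 FPKM in KO mice, and 3 of the 6 that could be tested were higher and 3 lower in KO mice.

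*Lyve1* (ENSMUSG00000030787.4, 6 exons on chromosome 7), a hyaluronan receptor gene of border macrophages and lymphatic endothelium, was at 12.5, 12.7 and 12.1 FPKM in WT mice against 14.3, 9.50 and 9.27 FPKM in KO mice. The WT values were nearly alike, and KO 1 lay above them while KO 2 and KO 3 lay below. The log2 fold change was −0.19 ± 0.22 (SE) with a limma p of 0.425, and it was −0.37 without KO 1 and −0.09 without KO 3. *Prox1*, the defining transcription factor gene of lymphatic endothelium, was at 1.37 to 3.49 FPKM in WT mice against 1.23 to 2.76 FPKM in KO mice. The lymphatic markers summed to 41.2 to 53.0 FPKM in WT mice against 60.4 to 96.2 FPKM in KO mice, mostly from *Pdpn*, which other cells also express.

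*Cd163* (ENSMUSG00000008845.9, 17 exons on chromosome 6), the hemoglobin scavenger receptor gene, was at 9.86, 3.48 and 2.91 FPKM in WT mice against 5.72, 3.13 and 4.46 FPKM in KO mice. WT 1 stood far above the other libraries. The log2 fold change was −0.11 ± 0.39 (SE, 95% interval −0.99 to 0.77) with a limma p of 0.786, the widest interval of the 10 genes. Without WT 1 it was 0.35. At its thinnest, *Cd163* was covered by an estimated 90.8 fragments in a library, and all its values lay above the floor of 0.103 FPKM that its length allows.

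The libraries of a group differed from each other in a shared way. WT 1 was the highest of all libraries for 5 of the 10 genes and KO 2 the lowest for 4. KO 2 was also the library of lowest estimated depth, at 6500000 fragments. Its FPKM values summed to 381187 over all symbols, against 425205 to 539408 in the other libraries, and no scaling was applied. Within WT mice, WT 3 was lowest for 7 of the 10. The 6 microglia genes summed to 216, 195 and 159 FPKM in WT mice against 167, 117 and 149 FPKM in KO mice. The 4 perivascular macrophage genes summed to 87.6, 86.9 and 61.9 FPKM in WT mice against 62.5, 55.8 and 55.2 FPKM in KO mice. In both sums WT 3 lay below KO 1 and the groups overlapped. The perivascular macrophage share of both sums was 27.0 to 32.3% over the 6 libraries, with KO 2 at the high end and KO 3 at the low end.

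The sums were also set against the summed level of 10 brain endothelium markers, which was 1057 to 1491 FPKM in WT mice against 953 to 1270 FPKM in KO mice. *Cldn5* and *Slc2a1* weighed most in that sum, with WT means of 576 and 237 FPKM of 1315 FPKM. The microglia genes then stood at 13.9 to 15.1% of endothelium in WT mice and at 12.3 to 13.1% in KO mice, and these ranges did not overlap. The perivascular macrophage genes stood at 5.86 to 6.22% in WT mice and at 4.78 to 5.85% in KO mice. The deletion acts in endothelium itself, and neither ratio was tested.

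**Figure D4:**
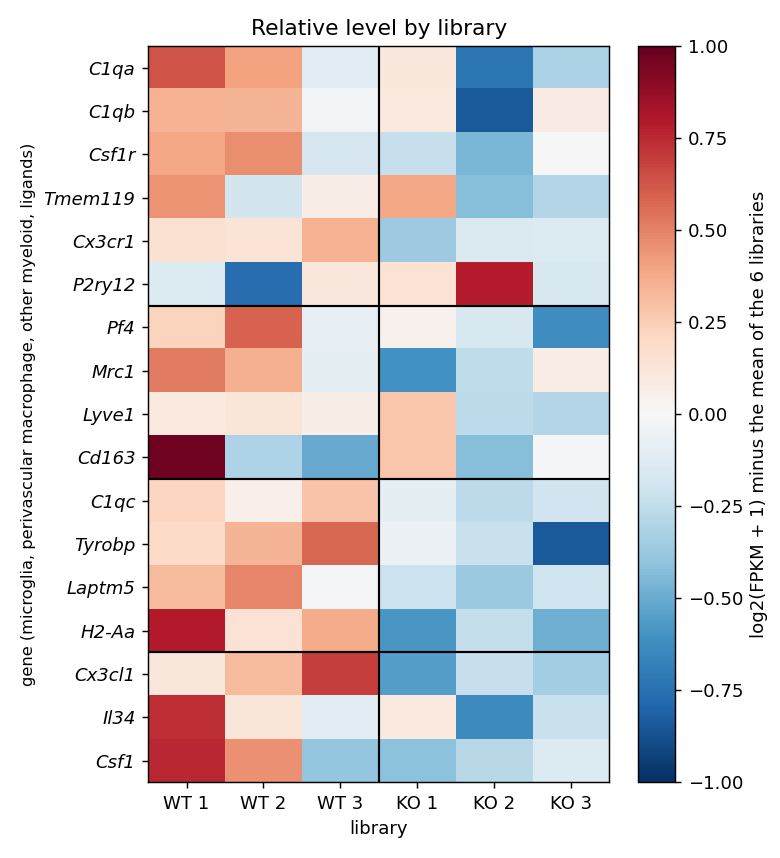
The plot of relative levels gives log2(FPKM + 1) minus the mean of the 6 libraries for the 10 genes, for *C1qc*, *Tyrobp*, *Laptm5* and *H2-Aa*, and for the ligand genes *Cx3cl1*, *Il34* and *Csf1*, with blue below and red above the mean and colors limited at 1. WT 1 is red for most rows and KO 2 is blue for most rows, and *P2ry12* in KO 2, at 16.4 FPKM, is the reddest KO cell among the microglia genes.

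The ligands of these receptors were lower in KO mice on average. *Cx3cl1*, the fractalkine gene, was at 58.3, 67.0 and 87.1 FPKM in WT mice against 36.4, 45.6 and 42.2 FPKM in KO mice, with no overlap. Its log2 fold change was −0.75 ± 0.21 (SE, 95% interval −1.22 to −0.27), with a limma p of 0.00572 unadjusted and 0.841 adjusted, and without KO 1 and KO 3 it was −0.60 with a limma p of 0.0636. The level of *Cx3cl1* was 3.91, 4.56 and 5.06 times that of *Cx3cr1* in WT mice and 3.58, 3.83 and 3.52 times in KO mice. Of the CSF1 receptor ligands, *Il34* was at 43.3 ± 14.1 FPKM in WT mice against 29.8 ± 7.61 FPKM in KO mice, with a log2 fold change of −0.51 and a limma p of 0.093. *Csf1* was at 17.4 ± 6.74 and 10.9 ± 1.10 FPKM, with a log2 fold change of −0.55 and a limma p of 0.0853. WT 1 and WT 3 weighed on both, since without WT 1 *Il34* was at −0.26 and *Csf1* at −0.31, and without WT 3 they were at −0.69 (limma p 0.0482) and −0.88 (limma p 0.0058). *Il34* also depended on the KO libraries, with −0.68 (limma p 0.0497) without KO 1, −0.32 without KO 2 and −0.88 (limma p 0.051) without KO 1 and KO 3. *Spi1*, the PU.1 gene, was at 3.13 to 7.86 FPKM in WT mice against 4.29 to 8.96 FPKM in KO mice, with a log2 fold change of −0.05 and a limma p of 0.899. Among these ligands and myeloid transcription factors, 7 of the 8 tested had a lower mean in KO mice and 1 of them, *Cebpb*, had an unadjusted p under 0.05 (log2 fold change −0.71, limma p 0.0387). That call held in 10 of 16 alternative settings, and after correction for GC content *Cebpb* was at −0.39 with a limma p of 0.234. *Mef2c*, the one of the 8 with a higher mean in KO mice, had a log2 fold change of 0.19. It was 0.03 after correction for GC content and 0.31 without WT 3. Without WT 1, 5 of the 8 had a lower mean.

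Other genes typical of microglia gave a mixed picture. Of 20 listed genes 19 were tested, 13 with a lower and 6 with a higher mean in KO mice, and the median log2 fold change was −0.09, or −0.20 to −0.03 when single libraries were left out. *Tyrobp*, the adaptor gene of the TREM2 receptor, was at 16.7, 18.6 and 22.1 FPKM in WT mice against 13.9, 12.3 and 7.66 FPKM in KO mice. The groups did not overlap, and the log2 fold change was −0.74 ± 0.25 (SE) with a limma p of 0.0143 unadjusted and 0.841 adjusted. *Laptm5*, a lysosomal protein gene of blood and immune cells, did not overlap either, with a log2 fold change of −0.52 and a limma p of 0.0274. Without KO 1 and KO 3 neither call held, at −0.59 (limma p 0.0573) for *Tyrobp* and −0.63 (limma p 0.0529) for *Laptm5*. Over the 16 alternative settings the call held in 13 for *Tyrobp* and in 11 for *Laptm5*, which was at −0.40 with a limma p of 0.063 after correction for GC content. *Ltc4s*, the leukotriene C4 synthase gene, was at 5.31, 7.56 and 18.9 FPKM in WT mice against 42.4, 13.8 and 48.4 FPKM in KO mice. It was highest in KO 1 and KO 3, the libraries with high choroid plexus markers, and its log2 fold change of 1.63 (limma p 0.00878) was 0.53 with a limma p of 0.442 without them.

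Of 14 other border macrophage genes 12 were tested, 8 with a lower and 4 with a higher mean in KO mice. Their median log2 fold change was −0.08 and none had an unadjusted p under 0.05. Single libraries decided the direction of this list. Without WT 1, 7 of 12 were higher with a median of 0.03, and without WT 3, 10 of 12 were lower with a median of −0.27. Under 0.05 were 2 genes without WT 1, both higher, and 3 without WT 3, all lower. Over all genes, 4.65% and 4.90% were under 0.05 in these fits, in either direction. *Stab1*, a scavenger receptor gene, was at 26.3 ± 9.08 FPKM in WT mice against 18.1 ± 1.89 FPKM in KO mice, with a log2 fold change of −0.46, or −0.75 (limma p 0.0121) without WT 3 and −0.24 without WT 2. *Dab2*, an adaptor of receptor uptake, and *Maf*, a macrophage transcription factor gene, had log2 fold changes of 0.03 and 0.10. The perivascular macrophage genes among the 10 thus had a lower median than the rest of the border macrophage list, a difference that was not tested.

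The genes whose pattern over the 6 libraries was most like the mean of the 6 microglia genes were *Evc*, *Synrg*, *Rgs19*, *Il34* and *Jun*, with Pearson's r of 0.973 to 0.983. For the 4 perivascular macrophage genes they were *Olfml3*, *Vtn*, *Slc6a13*, *Smad6* and *Dnajc14*, with r of 0.985 to 0.990. These are descriptions over 6 libraries that share the same overall differences, and 114 and 142 of 9950 genes had an r over 0.9. None of these 10 genes had an unadjusted p under 0.05, and their log2 fold changes ran from −0.13 for *Synrg* to −0.62 for *Olfml3*.

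Markers of other cells were read in the same libraries, and their part in the results was not tested. Neutrophil markers summed to 6.83 to 28.4 FPKM in WT mice against 5.18 to 23.3 FPKM in KO mice. Monocyte markers summed to 10.3 to 12.1 FPKM and 13.2 to 15.9 FPKM, while *Ccr2*, a defining receptor gene of monocytes, was at 0.797 to 1.73 FPKM in WT mice against 0.238 to 0.591 FPKM in KO mice and *Ly6c2* was at 0 in all libraries but KO 1. Lymphocyte markers summed to 3.65 to 10.3 FPKM over all libraries, with *Cd8a* at 0 throughout. Mast cell markers summed to 15.0 to 21.8 FPKM in WT mice against 12 to 14.4 FPKM in KO mice. Erythroid markers summed to 1765 to 2425 FPKM and 1209 to 2341 FPKM.

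Astrocyte markers, whose cells also surround vessels, summed to 575 to 671 FPKM in WT mice against 431 to 477 FPKM in KO mice, without overlap. Fibroblast markers summed to 1242 to 1856 FPKM and 832 to 1153 FPKM, again without overlap, and perivascular macrophages share the outer vessel wall with these cells. Pericyte markers summed to 789 to 1285 FPKM and 833 to 935 FPKM. Oligodendrocyte markers summed to 283 to 409 FPKM and 150 to 356 FPKM, neuron markers to 192 to 399 FPKM and 133 to 338 FPKM, and arterial smooth muscle markers to 370 to 838 FPKM and 398 to 1049 FPKM.

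**Figure D5:**
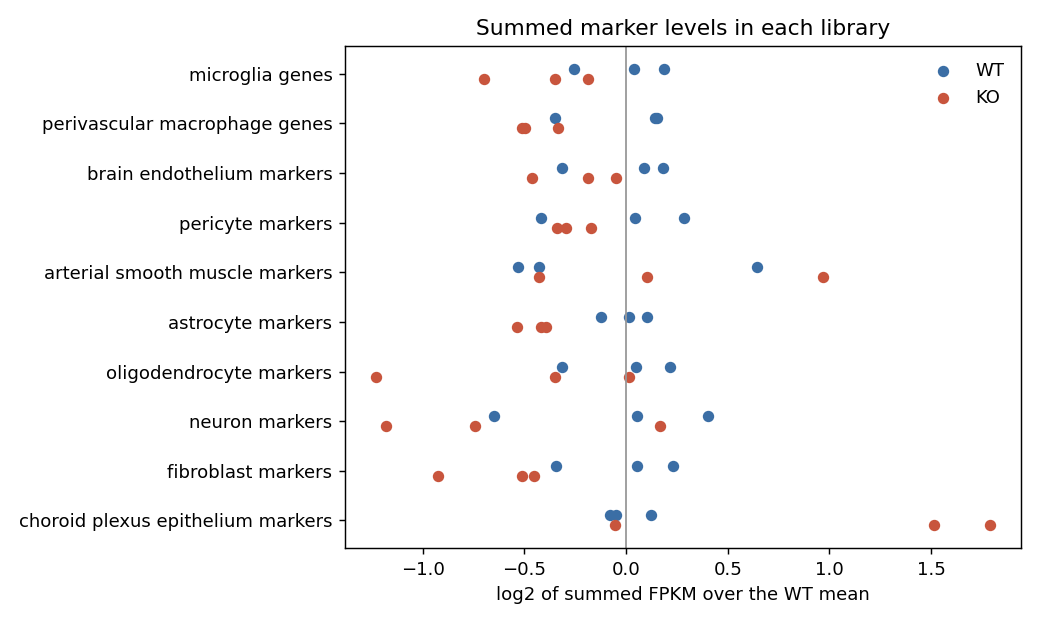
The plot of summed markers gives, for each cell type and library, the log2 of the summed FPKM over the WT mean, with WT libraries in blue and KO libraries in red. The microglia and perivascular macrophage sums overlap between groups, the astrocyte and fibroblast sums do not, and the choroid plexus sums of KO 1 and KO 3 stand far to the right.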

How the data were processed

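Total RNA of cerebral microvessels from 3 WT and 3 KO mice was extracted with TRIzol, and 1 library per sample was prepared with a directional NEBNext Ultra II kit. The authors trimmed the reads, mapped them with TopHat (to mm10, per the submitters' processing notes) and deposited FPKM values for 23183 symbols in each library. The annotation and the counting of strands are not given in the sources used here, and read counts were not used here. The authors compared groups with DESeq2, which needs counts, and limma was therefore used on the FPKM values.

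Libraries were grouped by genotype and named by their titles. That samples are separate mice is taken from the study's n, and p-values measure the spread between these samples. The fit of log2(FPKM + 1) used limma (version 3.58.1, under R version 4.3.3) and its trended variance, without scaling between libraries, on genes whose mean reached 1 FPKM, with Benjamini-Hochberg adjustment over all of them. Exact two-sided permutation tests were run for single genes. Python (version 3.11.15), pandas (version 2.3.3) and numpy (version 2.4.6) made the tables. The fit was tested on simulated data. Depth was estimated from the spacing of the smallest FPKM values and the lengths of 3075 genes with 1 annotated transcript. Coordinates, exon numbers, lengths and GC contents came from GENCODE M21 (GRCm38), and promoters from RefSeq.

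The 10 genes and all lists were chosen with earlier results of these data known. Named beside the 10 genes were the genes of 7 lists with an unadjusted p under 0.05 or among the 3 with the highest mean FPKM of a list, and the 5 genes most like each set of marker genes among those that reached a mean of 5 FPKM. Genes named beyond this rule (*Spi1*, *Med12l*, *Axl*, *Cd68*, *Ccl4*, *Il1b* and single markers of other cells) were chosen after their values were seen. 2 genes of these lists that were examined are not reported here, and counts over the lists include them. Alternatives were no filter, a mean of at least 5 FPKM, other scalings, a pseudocount of 0.1, no trended variance, a replicate block, corrections for length and GC content (loess, span 0.3), each library left out in turn and, chosen after seeing the data, KO 1 and KO 3 left out.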

Additional observations from a re-analysis of the deposited data

How the results depend on the processing

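Of 159 values of the 10 genes under the alternatives, 134 kept their direction and their side of an unadjusted p of 0.05, and none reached an adjusted p under 0.05 (smallest 0.358, limma). 9 of the 10 genes had a lower mean in KO mice in 13 of 16 settings, and 8 in 3, which were those without WT 1, without KO 2 and with a mean of at least 5 FPKM, where *Cd163* could not be tested and 9 genes were left. The number of the 10 with an unadjusted p under 0.05 was 1 as reported, 0 with scaling to the median and without the trended variance, 2 with a mean of at least 5 FPKM and with quantile normalization (against 6.39% and 6.51% of all genes), 3 with the length correction (against 6.36%), 3 without KO 1 and KO 3 (*P2ry12*, *C1qa* and *C1qb*, against 12.8%), and 0 to 4 when single libraries were left out, with 4 without WT 3 (against 4.90%), 0 without WT 1 or WT 2 (4.65% and 3.16%), 2 without KO 1 (3.58%), 1 without KO 2 (13.1%) and 2 without KO 3 (6.97%). The number was also 1 with no filter (*Cx3cr1*, against 5.49%), with a pseudocount of 0.1 (*C1qa*, against 5.76%) and with the GC correction (*Mrc1*, against 4.69%). With scaling to the median and without the trended variance, 5.62% and 5.58% of all genes had an unadjusted p under 0.05. Leaving out single libraries gave 450 to 1871 genes with an unadjusted p under 0.05 (450 without WT 2, 510 without KO 1 and 1871 without KO 2), and 0 to 4 with an adjusted one (1 without WT 3, 4 without KO 2 and 4 without KO 3). Without KO 1 and KO 3 these numbers were 1825 and 7. The median of the microglia genes was −0.52 to −0.24 when single libraries were left out, the latter without KO 2, and −0.60 without KO 1 and KO 3. That of the perivascular macrophage genes was −0.52 (without WT 3) to −0.21 (without KO 3). With the GC correction the medians were −0.32 for the microglia genes and −0.36 for the perivascular macrophage genes. Over 13726 genes the log2 fold change fell with GC content (Spearman's rho −0.347). The causes were not tested. Signs turned for *Cd163* (0.35 without WT 1, 0.07 without KO 2, −0.39 without WT 3, down to −0.48 without KO 1 and KO 3). *Dab2* turned too (−0.04 with the GC correction, −0.09 without WT 3, −0.10 without KO 3, −0.18 without KO 1 and KO 3, up to 0.16 without WT 2). So did *Maf* (−0.18 without WT 3, −0.07 without KO 1 and KO 3, up to 0.26 without WT 1). *Entpd1* turned likewise (−0.12 without WT 3, −0.07 without KO 1 and KO 3, up to 0.39 without WT 1). Signs also turned for *Cd9* (−0.09 without KO 1, −0.47 without KO 1 and KO 3, up to 0.50 without KO 2) and *Fth1* (0.08 without KO 2). Same-numbered libraries did not deviate together (r of 0.037, 0.027 and 0.002 across genes), so the replicate numbers of the titles were not taken as pairs. With the replicate block, 871 genes had an unadjusted and 0 an adjusted p under 0.05, and *C1qa* (limma p 0.0262) was the 1 of the 10 genes with an unadjusted p under 0.05. Precision is limited by 3 libraries a group and by the lack of read counts.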

Other observations

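Complement genes beside *C1qa* and *C1qb* were split in direction. Of 15 listed, *C1qc* among them, 13 were tested, 7 with a lower and 6 with a higher mean in KO mice, or 4 and 9 without WT 1, 9 and 4 without WT 3, and 10 and 3 after correction for GC content. The regulators *Cd55* and *Cd59a*, which protect host cells from complement, were higher in KO mice. *Cd55* was at 10.6, 10.7 and 9.03 FPKM in WT mice against 17.0, 11.4 and 18.5 FPKM in KO mice (log2 fold change 0.56, limma p 0.0375), and *Cd59a* at 26.4, 27.0 and 27.5 FPKM and 51.6, 27.6 and 47.1 FPKM (0.58, limma p 0.0418). Every KO value lay above every WT value for both, but the differences lay mostly in KO 1 and KO 3, the libraries with high choroid plexus markers, and without them they were 0.16 and 0.03. After correction for GC content both were still higher in KO mice, with a limma p of 0.0984 and 0.0822. *Serping1*, which encodes a soluble regulator, had a log2 fold change of −0.47, which was −1.12 (limma p 0.0293) without KO 1 and KO 3 and −0.14 without KO 2.

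Genes of microglial activation were in part at or near 0. Of 16 listed genes 9 reached a mean of 1 FPKM, 6 with a lower and 3 with a higher mean in KO mice, and *Ccl4* and *Il1b* were at 0 in all 6 libraries. The median log2 fold change of the 9 was −0.23. Without KO 1 and KO 3 it was −0.54, with 7 of the 9 lower and 4 of them under an unadjusted p of 0.05 (*Apoe*, *Cd68*, *Axl* and *Fth1*), against 12.8% of all genes, and without KO 2 it was −0.01. *Lgals3*, the galectin-3 gene, was at 8.43 ± 1.19 FPKM in WT mice against 15.1 ± 6.20 FPKM in KO mice (log2 fold change 0.70, limma p 0.0386), and without KO 1 and KO 3 it was 0.09. *Axl*, a receptor gene for uptake of dying cells, was lower in each KO library than in any WT library, at 25.8, 19.6 and 27.6 FPKM against 35.0, 28.8 and 31.9 FPKM (log2 fold change −0.39, limma p 0.0878). *Apoe*, *Fth1* and *Cd9*, the most abundant of the list and also expressed by other vessel and brain cells, had log2 fold changes of −0.41, −0.13 and 0.18. *Apoe* was at −0.67 (limma p 0.0026) under quantile normalization and at −0.22 after correction for GC content. Without KO 1 and KO 3, *Apoe* was at −0.74 and *Fth1* at −0.54.

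MHC class II genes, which in the brain are expressed more by border macrophages and dendritic cells than by resting microglia, had a lower mean in KO mice in 6 of 6 tested genes, with a median log2 fold change of −0.63. *H2-Aa* was at 11.1, 6.72 and 8.0 FPKM in WT mice against 3.65, 4.91 and 3.98 FPKM in KO mice, without overlap (log2 fold change −0.87 ± 0.26 (SE), limma p 0.00659 unadjusted and 0.841 adjusted). The values of *Cd74* and *H2-Ab1* were −0.70 (limma p 0.129) and −0.33 (limma p 0.441), and both moved with single libraries, *Cd74* from −0.27 without WT 1 to −1.11 (limma p 0.0211) without WT 3 and *H2-Ab1* from −0.06 without KO 2 to −0.83 (limma p 0.0315) without KO 1. Without KO 1 and KO 3 the median over these genes was −0.77, but none had an unadjusted p under 0.05 and *H2-Aa* was at −0.67 (limma p 0.102). Without WT 1 the median was −0.30. Of the partners of the chemokine and purinergic receptors, 5 of 8 had a lower mean in KO mice, or 3 of 8 without WT 1 and 7 of 8 without WT 3, and *Nt5e*, which encodes the enzyme that makes adenosine, was higher in every KO library than in any WT library at 10.8 ± 0.452 against 8.92 ± 0.395 FPKM (log2 fold change 0.25, limma p 0.231), while *Entpd1* had a log2 fold change of 0.15.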
